A study of Chlorocebus sabaeus with 10 samples.

Results

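Antioxidant defense and NRF2 target genes were followed in liver biopsies of 10 female vervet monkeys (Chlorocebus sabaeus), an Old World primate. The set was fixed by gene symbol and lists 10 genes, SOD1, SOD2, SOD3, CAT, GPX1, GPX4, HMOX1, NQO1, GCLC and GCLM, of which 8 were matched, each by 1 transcript, among the 28078 transcripts of the table. SOD1 and GPX4 were not analysed here. All animals had been kept on chow, and for 6 weeks 5 of them received a high fructose (HFr) diet while 5 stayed on chow. According to the study's methods the diets were balanced for age and body weight. The mean age that the study reports was higher on HFr than on chow, and it does not list age among the measures that differed. Each animal gave 1 flash-frozen biopsy and 1 library of polyadenylated RNA. The study asked how a short period of fructose feeding acts on the liver, and the transcripts compared here are those that handle reactive oxygen.

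Superoxide, formed mainly at the mitochondrial respiratory chain and by oxidases, is converted to hydrogen peroxide by superoxide dismutases, and hydrogen peroxide is removed by catalase in peroxisomes and by glutathione peroxidases and peroxiredoxins elsewhere. The first step of glutathione synthesis is catalyzed by glutamate-cysteine ligase, a pair of a catalytic and a modifier subunit. The transcription factor NRF2 (gene NFE2L2) is held in the cytoplasm and targeted for degradation by KEAP1, and on oxidative or electrophilic stress it enters the nucleus and activates genes with antioxidant response elements in their control regions, HMOX1, NQO1, GCLC and GCLM among them. The liver is rich in catalase and is the main site of glutathione production.

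Estimated counts per library ranged from 2977282 to 4992505, and nuclear transcripts held 864571 to 2657103 of them. The share on the mitochondrial genome was 34.7% to 73.6%. The mean mitochondrial percent was 55.5% ± 11.8 (SD, n = 5) on HFr and 55.4% ± 16.5 (SD, n = 5) on chow. Levels are given as normalized counts, which are estimated counts brought to a common library size (CPM) after scaling with TMM, the trimmed mean of M values. Transcript lengths were not used here, so levels are compared between animals and not between genes. All 8 hepatocyte markers were abundant enough to be tested, and their summed level lay between 40828 and 82083 normalized counts across the animals. In a biopsy, fewer cells of a type and less RNA per cell cannot be told apart.

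Among the 8 matched genes, 5 (SOD2, CAT, GPX1, HMOX1 and GCLC) passed the filter on low counts and were tested with edgeR's quasi-likelihood test. None of the 5 had an unadjusted p under 0.05, and none had an adjusted p under 0.05. The same count of 0 was obtained with DESeq2, limma and voom on the same transcripts. Across all 7948 tested transcripts, 4.29% had an unadjusted p under 0.05, 2.06% with a higher and 2.23% with a lower level on HFr, and none passed adjustment in edgeR, whereas 2 did in DESeq2, neither of them a member of the set. The log2 fold change from chow to HFr was negative for SOD2, CAT and GCLC and positive for GPX1 and HMOX1. The median of the 5, which is the value of CAT, was -0.32, beside -0.00075 over all tested transcripts. For SOD2, CAT and GCLC each of the 5 HFr animals lay below the chow mean. The share of all tested transcripts with this pattern was not computed, so it has no background to be read against. SOD3, NQO1 and GCLM had too few counts for this test. When each transcript with a count in any animal was tested, 4 of the 8 genes had a negative and 4 a positive log2 fold change. Their median was then -0.07, beside -0.013 over all transcripts of that larger test. None of the 8 genes separated the diets without overlap, which 0.541% of the tested transcripts did. The plot of normalized counts by animal shows all 80 values.

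**Figure D1:**
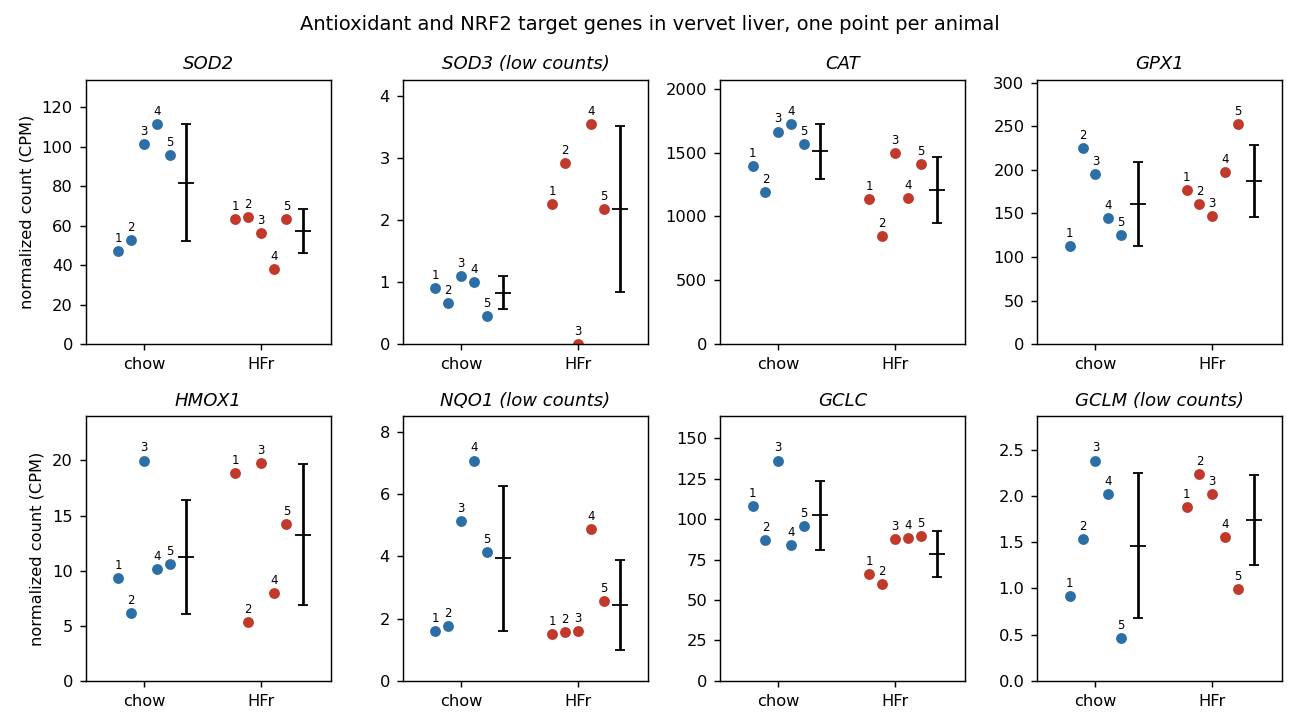
Normalized counts (CPM of the TMM-scaled library, linear axis from 0) of the 8 matched genes in each of the 5 chow (blue) and 5 HFr (red) animals, with the replicate number above each point and the mean ± SD in black. SOD2 in chow falls at 47.3 and 52.8 in replicates 1 and 2 and between 96.1 and 112 in the others, and SOD3 in HFr replicate 3 is at 0 while the other 4 HFr animals are above every chow animal.

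The superoxide dismutases were represented by the mitochondrial and the extracellular enzyme. SOD2, which encodes the manganese enzyme of the mitochondrial matrix, lies on chromosome 13 of the ChlSab1.1 assembly from 87280686 to 87297974 on the minus strand (ENSCSAG00000012601). Its normalized counts on HFr were 63.3, 64.4, 56.5, 38.0 and 63.5 in replicates 1 to 5, and on chow they were 47.3, 52.8, 101, 112 and 96.1. Chow replicates 3, 4 and 5 stood above every HFr animal, whereas chow replicates 1 and 2 lay within the HFr range. The group means were 57.1 ± 11.2 (SD, n = 5) on HFr and 81.8 ± 29.6 (SD, n = 5) on chow. For SOD2 the fitted log2 fold change was -0.51 (standard error 0.26, 95% interval -1.06 to 0.03, unadjusted p = 0.0639, adjusted p = 0.9996 in edgeR). The difference in means gave p = 0.143 in a two-sided exact permutation test. The unadjusted p of SOD2 from edgeR was 0.0158 without chow replicate 1 and 0.0251 without chow replicate 2, and it was 0.166 without chow replicate 4.

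SOD3, the copper and zinc enzyme secreted to the extracellular space, lies on chromosome 27 from 25555082 to 25555804 on the minus strand (ENSCSAG00000019694). It was detected with few reads. The HFr animals had 6, 13, 0, 16 and 11 estimated counts in replicates 1 to 5 and the chow animals 4, 3, 6, 2 and 1, a total of 46 against 16. In normalized counts the HFr values were 2.26, 2.92, 0, 3.55 and 2.18, and the chow values were 0.914, 0.657, 1.1, 1.01 and 0.460. Of the HFr animals 4 were above all chow animals and 1, replicate 3, was at 0. At the depth of that library a count of 0 allows up to 3 counts, or 1.21 normalized counts, by counting error alone. The means were 2.18 ± 1.34 (SD, n = 5) on HFr and 0.828 ± 0.265 (SD, n = 5) on chow, a ratio of 2.63 (two-sided exact permutation p = 0.0476, where 0.00794 is the smallest p that 5 animals against 5 allow). SOD3 was the only one of the 8 genes with an exact permutation p under 0.05. The exact permutation p of SOD3 was not adjusted over the 8 genes, and this test was not run on all transcripts. Without HFr replicate 3 this p was 0.0159, the smallest that 4 animals against 5 allow, because the diets then no longer overlap. Without any other single animal it was 0.0794 or 0.0952. When each transcript with a count in any animal was tested, SOD3 had a log2 fold change of 1.39 (with standard error 0.59, and unadjusted p = 0.0263, adjusted p = 0.838 in edgeR). In that larger test 4.71% of 16066 transcripts had an unadjusted p under 0.05.

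Peroxide removal was represented by CAT and GPX1. CAT, the gene of the peroxisomal catalase, lies on chromosome 1 from 30792399 to 30829592 on the minus strand (ENSCSAG00000005418) and had from 3011 to 9077 estimated counts per animal. Its normalized counts were 1135, 846, 1497, 1141 and 1409 in HFr replicates 1 to 5, and they were 1393, 1191, 1665, 1725 and 1568 in chow replicates 1 to 5. The lowest values belonged to HFr replicates 2, 1 and 4 and the highest to chow replicates 4, 3 and 5, with the remaining animals of both diets mixed between them. The means were 1206 ± 257 (SD, n = 5) and 1508 ± 217 (SD, n = 5), a ratio of 0.799. For CAT the fitted log2 fold change was -0.32 (standard error 0.22, 95% interval -0.79 to 0.15, unadjusted p = 0.162, adjusted p = 0.9996 in edgeR). The two-sided exact permutation p was 0.0794. It was 0.0476 without HFr replicate 3 and also without chow replicate 2, and 0.05 or more without any other single animal. The unadjusted p of CAT from edgeR was 0.101 without HFr replicate 3, 0.110 without chow replicate 2 and 0.339 without HFr replicate 2.

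GPX1 encodes the cytosolic glutathione peroxidase, a selenoprotein that reduces hydrogen peroxide with glutathione. It lies on chromosome 22 from 10754970 to 10757057 on the minus strand (ENSCSAG00000015079). Normalized counts of GPX1 on HFr were 177, 161, 147, 197 and 253 in replicates 1 to 5, and on chow they were 112, 225, 196, 145 and 125. Both diets covered much of the same range, with the highest value in HFr replicate 5 and the lowest in chow replicates 1 and 5. The means were 187 ± 41.3 (SD, n = 5) and 161 ± 48.0 (SD, n = 5). For GPX1 the fitted log2 fold change was 0.22 (standard error 0.23, 95% interval -0.27 to 0.71, unadjusted p = 0.351, adjusted p = 0.9996 in edgeR). With 1 animal left out it lay between 0.09 (without HFr replicate 5) and 0.37 (without chow replicate 2).

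HMOX1 encodes heme oxygenase 1, the inducible enzyme that opens the heme ring to give biliverdin, iron and carbon monoxide. It lies on chromosome 19 from 18144545 to 18157971 on the plus strand (ENSCSAG00000008200) and had 20 to 109 estimated counts per animal. Its normalized counts on HFr were 18.8, 5.38, 19.8, 8.0 and 14.2, and on chow they were 9.37, 6.13, 19.99, 10.1 and 10.6. The coefficient of variation between animals of the same diet was 48.4% on HFr and 46.2% on chow, and the highest value of all 10 animals was that of chow replicate 3. For HMOX1 the fitted log2 fold change was 0.19 (standard error 0.37, 95% interval -0.62 to 0.99, unadjusted p = 0.629, adjusted p = 0.9996 in edgeR). It was 0.54 without chow replicate 3 and -0.0036 without HFr replicate 3, 0.02 without HFr replicate 1, 0.01 without chow replicate 2 and 0.40 without HFr replicate 2.

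NQO1, the gene of a quinone reductase widely used as a readout of NRF2 activity, lies on chromosome 5 from 57675981 to 57716599 on the plus strand (ENSCSAG00000004154). It had 4, 7, 4, 22 and 13 estimated counts in HFr replicates 1 to 5 and 7, 8, 28, 14 and 9 in chow replicates 1 to 5. These corresponded to 1.51, 1.57, 1.61, 4.89 and 2.57 normalized counts on HFr and 1.6, 1.75, 5.13, 7.08 and 4.14 on chow. The lowest values were found in HFr replicates 1, 2 and 3 and in chow replicates 1 and 2, and the others were spread above them in both diets. The means were 2.43 ± 1.44 (SD, n = 5) and 3.94 ± 2.32 (SD, n = 5), with a two-sided exact permutation p of 0.262 for the difference. With each transcript with a count tested, NQO1 had a log2 fold change of -0.56 (with standard error 0.47, and unadjusted p = 0.242, adjusted p = 0.838 in edgeR). The annotated span of NQO1 overlaps NFAT5 on the opposite strand, which held 33 estimated counts over the 10 animals, and although the library kit marks strand, whether reads were assigned by strand is not given in the sources used here.

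Both subunits of glutamate-cysteine ligase were matched. GCLC, the catalytic subunit, lies on chromosome 17 from 19013026 to 19060659 on the plus strand (ENSCSAG00000013162). Its normalized counts on HFr were 65.9, 59.9, 87.9, 88.6 and 89.6 in replicates 1 to 5, and on chow they were 108, 87.4, 136, 83.9 and 95.6. Chow replicates 1, 3 and 5 were above every HFr animal, and chow replicates 2 and 4 lay between the 2 lowest and the 3 highest HFr animals. The means were 78.4 ± 14.3 (SD, n = 5) and 102 ± 21.2 (SD, n = 5). For GCLC the fitted log2 fold change was -0.39 (standard error 0.19, 95% interval -0.80 to 0.03, unadjusted p = 0.0637, adjusted p = 0.9996 in edgeR), with a two-sided exact permutation p of 0.0794. The unadjusted p of GCLC from edgeR was 0.0436 without chow replicate 4, and its estimate was -0.26 on the log2 scale without chow replicate 3.

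GCLM, the modifier subunit, lies on chromosome 20 from 39339908 to 39359430 on the plus strand (ENSCSAG00000001481) and held 5, 10, 5, 7 and 5 estimated counts on HFr and 4, 7, 13, 4 and 1 on chow. Its normalized counts were 1.88, 2.24, 2.02, 1.56 and 0.989 on HFr and 0.914, 1.53, 2.38, 2.02 and 0.460 on chow. The diets overlapped over nearly the whole range, with means of 1.74 ± 0.487 (SD, n = 5) and 1.46 ± 0.786 (SD, n = 5) and a two-sided exact permutation p of 0.524. For GCLM the fitted log2 fold change was 0.18 (with standard error 0.50, and unadjusted p = 0.727, adjusted p = 0.986 in edgeR) when each transcript with a count was tested.

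**Figure D2:**
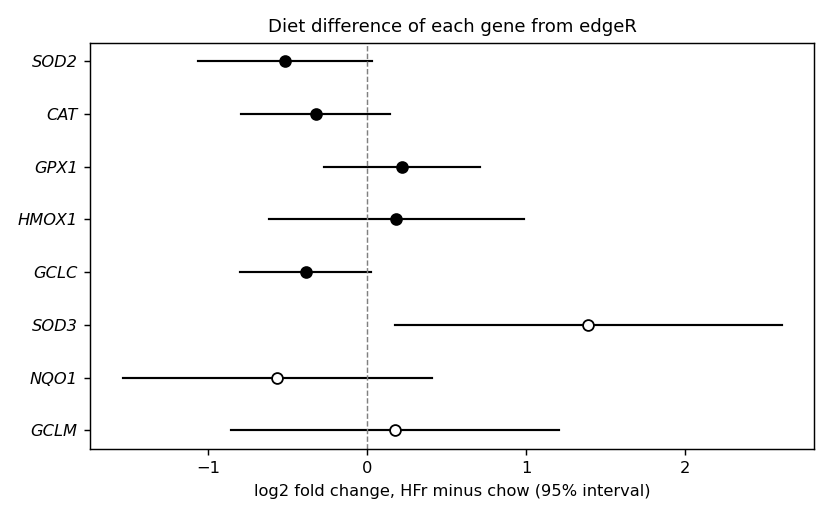
Log2 fold change (HFr minus chow) of each gene from edgeR with its 95% interval. Filled points are the 5 genes of the reported test, whose intervals all include 0, and open points are the 3 genes of low counts in the test of each transcript with a count, where the interval of SOD3 (0.18 to 2.61) lies above 0.

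The spread between animals of the same diet was followed across the genes. Within the chow group, replicates 3, 4 and 5 held the 3 highest values of SOD2, CAT, HMOX1 and NQO1. The same 3 animals had the 3 highest summed levels of 7 matched macrophage markers among the chow animals, at 102.5, 216 and 168 normalized counts against 88.2 and 51.2 in replicates 1 and 2. GPX1, GCLC, SOD3 and GCLM did not have this order. How many of all tested transcripts have this order in chow was not counted, so the order is given as a description only. On HFr the 3 highest macrophage sums were those of replicates 1, 3 and 5, as were the 3 highest HMOX1 values, whereas the 3 highest were in replicates 1, 2 and 5 for SOD2 and in replicates 3, 4 and 5 for CAT and NQO1. Of the 10 pairs that the 5 tested genes form, the closest was CAT with GCLC (Pearson r = 0.728, permutation p = 0.0188, adjusted over the 10 pairs p = 0.188, and Spearman rho = 0.515, permutation p = 0.134, adjusted p = 0.446, n = 10 animals). Without the 2 animals whose CAT level was farthest from the median, r was 0.337. Leaving them out narrows the range of CAT and this lower r was not tested, so it cannot decide whether the relation holds. No pair had an adjusted permutation p under 0.05, in Pearson's or in Spearman's correlation. Here and in the correlations below both diets were pooled and diet was not taken out, so a difference between diets enters the coefficients.

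The mitochondrial percent of a library, which varied in both diets, was set beside each tested gene over the 10 animals. The largest coefficient was that of GPX1 (Pearson r = -0.623, permutation p = 0.0565, adjusted over 5 genes p = 0.282, and Spearman rho = -0.552, permutation p = 0.104, adjusted p = 0.386), and r was -0.626 without the 2 animals farthest from the median percent. For SOD2, CAT, HMOX1 and GCLC Pearson's r was 0.193, 0.430, 0.293 and -0.0517, with permutation p-values of 0.587, 0.216, 0.400 and 0.886 before and 0.734, 0.539, 0.666 and 0.886 after adjustment. Without the 2 animals farthest from the median percent these r were 0.0757, 0.0460, -0.351 and -0.525. Spearman's rho in the same order was 0.200, 0.491, 0.297 and 0.0303, with permutation p-values of 0.584, 0.154, 0.407 and 0.945 before and 0.730, 0.386, 0.679 and 0.945 after adjustment. No tested gene was related to the mitochondrial percent at an adjusted p under 0.05.

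Markers of other liver cell types were summed in the same way, and the diets overlapped for each list. The macrophage sum ranged from 45.5 to 197 normalized counts on HFr and from 51.2 to 216 on chow (two-sided exact permutation p = 0.794), the endothelial sum of 8 markers from 312 to 425 and from 248 to 432 (p = 0.960 in the same exact permutation test), and the cholangiocyte sum of 4 matched markers from 6.0 to 26.6 and from 10.1 to 31.7 (p = 0.444, exact permutation test). The erythroid sum of 5 matched markers ranged from 101 to 335 on HFr and from 61.1 to 346 on chow (p = 0.476, exact permutation test). Nearly all of it was HBB, while ALAS2 had 46 counts in total on HFr and 50 on chow, and HBM, AHSP and SLC4A1 had at most 8 per diet. The sum of the 8 stellate cell and fibroblast markers ranged from 224 to 407 on HFr and from 180 to 827 on chow (p = 0.444, exact permutation test), with 827 and 686 in chow replicates 1 and 5. Of its 6 tested genes, 5 had a negative and 1 (COL1A1, at 0.20) a positive log2 fold change, and 1, the myofibroblast gene ACTA2, had an unadjusted p under 0.05, beside 4.29% of all tested transcripts. ACTA2 had a log2 fold change of -1.57 (with standard error 0.49, and unadjusted p = 0.0065, adjusted p = 0.9996 in edgeR). GPX1 ran opposite to this sum across the 10 animals (Pearson r = -0.863, permutation p = 0.0014, adjusted p = 0.0414 over 30 relations of 5 genes with 6 marker lists, and Spearman rho = -0.818, permutation p = 0.0057, adjusted p = 0.170), with r = -0.674 without the 2 animals whose sum was farthest from the median. GPX1 ran with the hepatocyte sum, at r = 0.728 (permutation p = 0.0168, adjusted p = 0.232) and rho = 0.685 (permutation p = 0.0345, adjusted p = 0.388), and r was 0.613 without the 2 animals whose sum was farthest from the median. HMOX1 and the macrophage sum had r = 0.715 (permutation p = 0.0232, adjusted p = 0.232) and rho = 0.673 (permutation p = 0.0388, adjusted p = 0.388), and r was 0.306 without the 2 animals whose sum was farthest from the median. CAT and the macrophage sum had r = 0.646 (permutation p = 0.0430, adjusted p = 0.322) and rho = 0.515 (permutation p = 0.134, adjusted p = 0.669), and r was 0.184 without the same 2 animals. Of the 30 relations, that of GPX1 with the stellate cell and fibroblast sum alone had an adjusted p under 0.05, in Pearson's correlation only. The relations with marker lists were computed after the values had been seen, without taking out diet. The part of these cells in the levels of GPX1, HMOX1 and CAT was not tested.

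**Figure D3:**
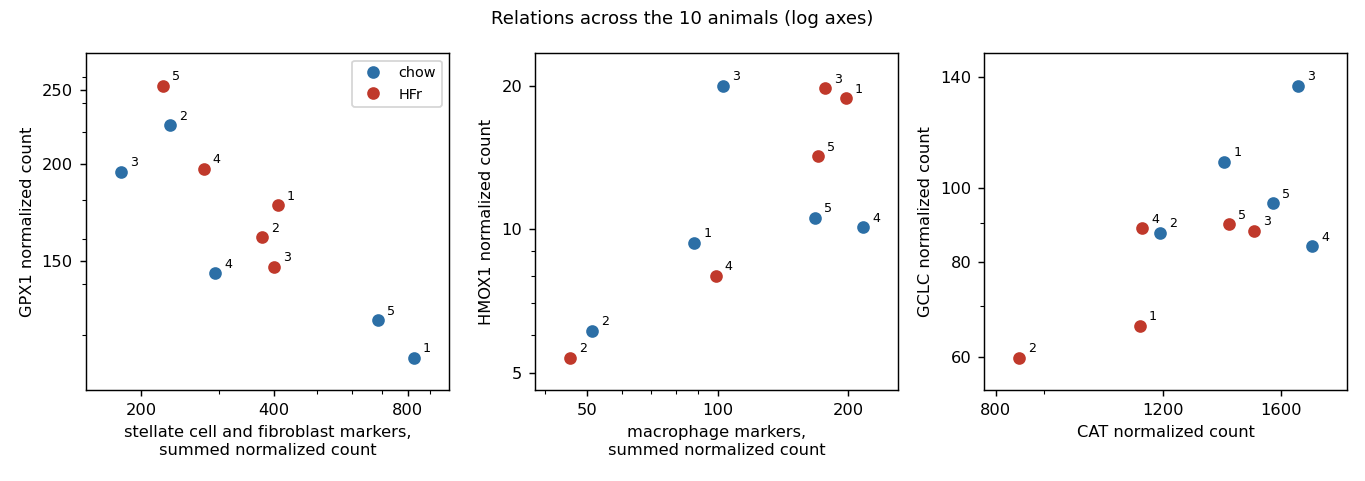
Normalized counts on log axes in the 5 chow (blue) and 5 HFr (red) animals, with replicate numbers beside the points, for GPX1 against the summed stellate cell and fibroblast markers, HMOX1 against the summed macrophage markers and GCLC against CAT. Pearson's r on the log2 scale is -0.863, 0.715 and 0.728, and 0.337 for CAT with GCLC when the 2 animals farthest from the median of CAT are left out.

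For each tested gene the 2 named transcripts with the most similar pattern were picked out of 7159 tested transcripts by Pearson's r of log2 normalized counts over the 10 animals, as a description. They were GPBP1L1 (r = 0.943) and NAMPT (r = 0.925) for SOD2, TTPA (r = 0.960) and RGN (r = 0.944) for CAT, SHROOM1 (r = 0.936) and NDUFAF3 (r = 0.926) for GPX1, GAB3 (r = 0.946) and GNA14 (r = 0.911) for HMOX1, and AOX1 (r = 0.932) and ANO1 (r = 0.912) for GCLC. The points share library depth and composition, and the highest of 7159 coefficients is large by selection.

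Other genes of the same pathways were taken from 6 lists with 97 genes, of which 84 were matched and 64 passed the filter on low counts. Among the 64 genes, 31 had a positive and 33 a negative log2 fold change, with a median of -0.02. Of the 64 genes, 2 (NQO2 and SEPSECS) had an unadjusted p under 0.05 from edgeR, a share below the 4.29% of all tested transcripts. No gene of the lists passed adjustment. The lists of NRF2 control, of glutathione synthesis and recycling, of thioredoxin and peroxiredoxin and of superoxide and peroxide sources held 0 genes with an unadjusted p under 0.05 from edgeR. Under the 23 alternatives, genes of these 4 lists that had one were GLRX, the glutaredoxin gene, in 5, XDH, the xanthine dehydrogenase gene, in 3 (DESeq2 and the equal-variance test among them), MAFF in 3, and PRDX5, TXNRD1 and RAC2 in 1 each. Under the same alternatives 1.55% to 5.11% of all tested transcripts had an unadjusted p under 0.05. These 6 genes were named after their values were seen. MAFF did not pass the filter on low counts in the reported test, so it was tested only under alternatives that kept it.

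The regulators of NRF2 were measured with 8 tested genes of 12 listed. All 8 had log2 fold changes below 0, from -0.38 for SQSTM1 to -0.03 for RBX1 with a median of -0.08, while 50.2% of all tested transcripts were below 0. The number below 0 was 6 of 8 with limma at either pseudocount (1 or 0.1) and 6 of 8 without chow replicate 3. It was 7 of 8 with the replicate block and without chow replicate 1, and 7 of 9 without HFr replicate 4 or chow replicate 2. With each transcript with a count tested it was 9 of 11. The list holds NFE2L2 together with KEAP1, which targets NRF2 for degradation, so a shared sign has no single meaning for NRF2 activity. NFE2L2 and KEAP1 are named here for their role and not by the rule for named genes. NFE2L2 had 15.4, 21.3, 22.6, 19.1 and 29.9 normalized counts in HFr replicates 1 to 5 and 17.8, 23.2, 39.2, 15.2 and 16.1 on chow. Its log2 fold change was -0.06 (standard error 0.27, 95% interval -0.63 to 0.51), and it was 0.02 with limma and -0.21 to 0.25 when 1 animal was left out. KEAP1, the adaptor that presents NRF2 for ubiquitination, had 23.9 ± 5.21 normalized counts (SD, n = 5) on HFr and 25.6 ± 2.11 (SD, n = 5) on chow, and its log2 fold change was -0.10 ± 0.18 (standard error), or 0.0049 without HFr replicate 2. SQSTM1, an autophagy receptor that binds KEAP1, had the most normalized counts of the list, 94.8 ± 17.4 and 123 ± 47.3 (SD, n = 5 per diet), with 200.3 in chow replicate 3 and 78.6 to 128 in the other chow animals. The estimate for SQSTM1 was -0.38 on the log2 scale (with standard error 0.24, and unadjusted p = 0.141, adjusted p = 0.9996 in edgeR), and it was -0.13 without chow replicate 3.

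Among the 17 tested of 22 other NRF2 targets, 9 had positive and 8 negative log2 fold changes with a median of 0.01. NQO2, a relative of NQO1 that reduces quinones with dihydronicotinamide riboside in place of NADH or NADPH, lies on chromosome 17 from 69147937 to 69161045. It had 33.5, 28.0, 28.2, 41.5 and 57.0 normalized counts in HFr replicates 1 to 5 and 21.0, 21.5, 30.1, 33.4 and 16.1 in chow replicates 1 to 5. Chow replicates 3 and 4 lay within the HFr range, and chow replicates 1, 2 and 5 lay below it. For NQO2 the fitted log2 fold change was 0.63 (with standard error 0.24, and unadjusted p = 0.0208, adjusted p = 0.9996 in edgeR). Its unadjusted p was 0.05 or more under 4 of 23 alternatives, at 0.0840 with normalization by library size only, 0.0675 with the equal-variance test, 0.0796 without HFr replicate 5 and 0.0547 without chow replicate 5. IDH1, the cytosolic isocitrate dehydrogenase that supplies NADPH, had the most normalized counts of this list, 412 ± 98.9 on HFr and 410 ± 64.2 on chow (SD, n = 5 per diet). The log2 fold change of IDH1 was 0.01 ± 0.21 (standard error), with the sign changing under 10 of 23 alternatives.

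Selenoproteins such as GPX1 depend on a transfer RNA charged with selenocysteine, and SEPSECS encodes the enzyme of the last step of that charging. SEPSECS lies on chromosome 27 from 25202506 to 25243330. Its normalized counts were 31.3, 25.3, 32.3, 25.3 and 31.3 in HFr replicates 1 to 5 and 37.2, 32.0, 38.7, 45.0 and 34.9 on chow. Chow replicate 2 lay within the HFr range and the other 4 chow animals lay above it. For SEPSECS the fitted log2 fold change was -0.37 (with standard error 0.16, and unadjusted p = 0.0344, adjusted p = 0.9996 in edgeR), and its unadjusted p was 0.05 or more under 7 of 23 alternatives, from 0.0573 to 0.294. Over the 8 tested of 14 genes of this list, 5 had positive and 3 negative log2 fold changes with a median of 0.03. SELENBP1, a selenium-binding protein gene, had 69.7 ± 30.5 and 69.2 ± 17.2 normalized counts (SD, n = 5 per diet), with 123 in HFr replicate 4.

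Glutathione synthesis and recycling had 9 tested of 17 listed genes, 4 with positive and 5 with negative log2 fold changes, from -0.48 for CHAC2 to 0.60 for GLRX (unadjusted p = 0.0577, adjusted p = 0.9996 in edgeR), with a median of -0.09. OPLAH, the 5-oxoprolinase of the glutathione cycle, had 127 ± 55.4 and 101 ± 26.4 normalized counts (SD, n = 5 per diet) with 216 in HFr replicate 4, and its log2 fold change was 0.33 ± 0.27 (standard error). It was 0.049 without HFr replicate 4, 0.51 without chow replicate 2 and 0.13 with voom. The thioredoxin and peroxiredoxin list had 12 tested of 18, evenly divided with 6 in each direction, from -0.45 for TXNRD2 to 0.33 for PRDX2 and with a median of -0.03. PRDX6, which also reduces phospholipid hydroperoxides, had 155 ± 22.5 and 152 ± 31.4 normalized counts (SD, n = 5 per diet), and its log2 fold change was 0.03 ± 0.19 (standard error). Of the 10 tested superoxide and peroxide sources, 7 had positive and 3 negative values, from -0.42 for AOX1 to 0.41 for RAC2, with a median of 0.20. AOX1, the aldehyde oxidase that releases hydrogen peroxide and superoxide, had 1078 ± 241 normalized counts (SD, n = 5) on HFr and 1437 ± 329 (SD, n = 5) on chow. The estimate for AOX1 was -0.42 on the log2 scale (with standard error 0.24, and unadjusted p = 0.103, adjusted p = 0.9996 in edgeR).

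**Figure D4:**
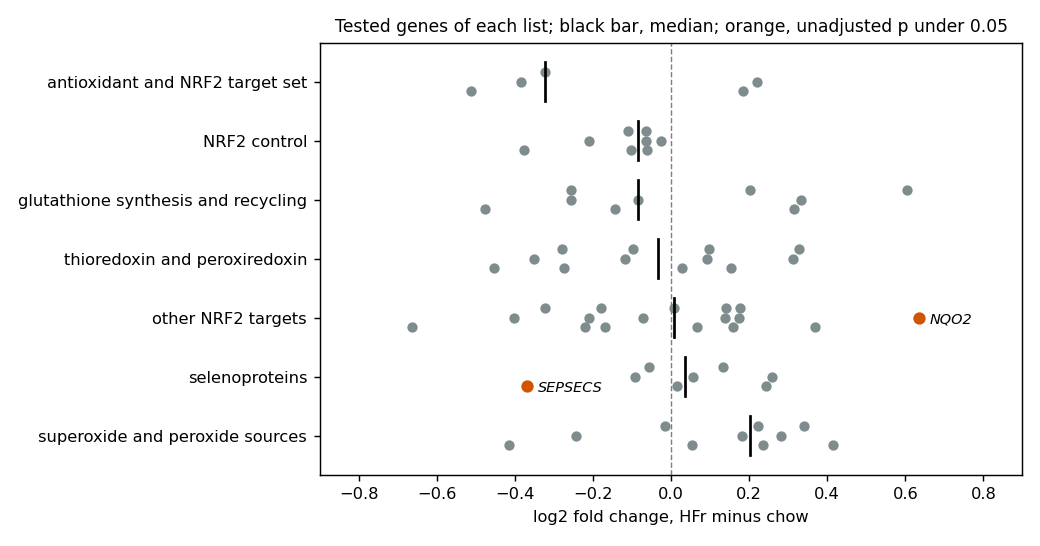
Log2 fold change (HFr minus chow, edgeR) of each tested gene in the antioxidant and NRF2 target set and in the 6 pathway lists, with the median of each list as a black bar. The orange points, NQO2 at 0.63 and SEPSECS at -0.37, are the genes with an unadjusted p under 0.05. In this test the 8 NRF2 control genes all lie below 0, which did not hold under each alternative.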

How the data were processed

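RNA-Seq libraries of 10 vervet livers were analysed. The values used are each expected count or estimated count per transcript that the authors made in Partek Flow, by alignment to ChlSab1.1 (STAR 2.5.3a, per the submitters' processing notes) and expectation-maximization over the Ensembl annotation. The deposited normalized signal is the same table scaled by TMM, with a constant ratio in each sample to within 0.00147% for counts of 20 or more, and was not tested.

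Counts were rounded (95.0% of the values above 0 were exactly whole, with no tolerance), passed through filterByExpr (in at least 5 animals a CPM worth 10 counts in a library of median size, and at least 15 counts over all animals) and compared with edgeR 4.0.16 in R 4.3.3 after TMM, with diet as the only term. Values and permutation tests used unrounded counts. Standard errors are the log2 fold change divided by the square root of F. The threshold was 0.05, and adjustment over all tested transcripts followed Benjamini and Hochberg. Exact permutation tests used all 252 assignments of animals to diets, and those of correlations drew 100000 permutations of log2(CPM + 1). DESeq2 1.42.0, limma 3.58.1, normalization by library size, other filters, the study's equal-variance test on normalized counts, the mitochondrial percent as a covariate, a replicate block and leaving out each animal were the alternatives. Leaving animals out of the permutation tests, permutation tests and relations on nuclear counts alone, and marker relations were added after the data had been seen. A symbol stands for its transcript of highest mean count, and coordinates follow the deposited tables, 1-based with the listed stop left out.

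The genes named are the matched members, pathway genes with an unadjusted p under 0.05, the gene of most normalized counts in each list (no comparison of levels per length), and the 2 transcripts most like each tested member. Members and lists were chosen with earlier results of these data known. The procedure was tested on simulated data. Intervals for a count of 0 cover counting error only.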

Additional observations from a re-analysis of the deposited data

How the results depend on the processing

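No alternative in either test gave SOD2, CAT, GPX1 or GCLC the other sign. With each transcript with a count tested, 756 transcripts of 16066 and 2 of the 8 genes (SOD2 and SOD3) had an unadjusted p under 0.05, and with library size only 123 transcripts and 0 pathway genes had one (edgeR). With 1 animal left out, the number of transcripts was 260 to 408, of members 0 to 1 (SOD2 without chow replicate 1 or 2, GCLC without chow replicate 4) and of pathway genes 1 to 5 (5 without HFr replicate 3, 1 without chow replicate 3). The difference of means was 1.01 to 1.90 normalized counts for SOD3 and -382 to -213 for CAT.

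The labels do not say that replicate numbers pair animals, and the numbers are used here as names. Deviations of same-numbered animals correlated at -0.0377, -0.00538, -0.0429, 0.0986 and -0.287, and values this few cannot decide whether a pairing exists. With the replicate number as a block, 271 transcripts, 0 members and 1 pathway gene (NQO2) had an unadjusted p under 0.05, and of replicates 1 to 5 none on HFr correlated best with its own number on chow.

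The log2 fold changes near 0 changed sign under several settings. For IDH1 they were -0.04 with library size only, -0.016 with limma at either pseudocount, -0.046 with voom and -0.014 with the replicate block, and -0.10 to 0.13 with 1 animal left out. For SELENBP1 they were -0.018, -0.039 and -0.040, -0.15 and -0.041 in the same order, and -0.30 to 0.12. NFE2L2 had 0.017 and 0.020 with limma, 0.0027 with the block, and -0.21 to 0.25. The leave-one-out ranges were -0.04 to 0.16 for PRDX6, -0.21 to 0.0049 for KEAP1 and -0.0036 to 0.54 for HMOX1. The cause was not tested. SOD3, NQO1 and GCLM rest on 0 to 28 counts per animal, which limits their precision.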
